A study of Homo sapiens with 5 samples.

Results

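Serum response factor (SRF) and 9 contractile genes that it is known to drive were followed across the 5 libraries: ACTA2, TAGLN, CNN1, CNN2, MYL9, TPM1, TPM2, CALD1 and VCL. They were picked by symbol from a table of raw counts that lists 64252 gene identifiers, and each of the 10 symbols matched a single row. A filter on low counts left 15341 genes to test, among them 9 of the 10, and CNN1 did not pass. By edgeR's quasi-likelihood test, CALD1 was called lower after FAM53C knockdown and no member higher, beside 3.47% and 0.489% of all tested genes. The CALD1 call was lost when control replicate 1 or 2 was left out. SRF, ACTA2 and TPM2 lay above the controls in both knockdown libraries without passing the adjusted threshold, and CALD1 and CNN2 lay below. Of all tested genes, 16.7% lay above all controls in this way and 18.8% below.

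RPE-1 is an established human line of retinal pigment epithelium that was immortalized with telomerase. The cells were collected 48 hr after transfection, with Lipofectamine RNAiMAX, of siRNA at 5 µM by the labels. The control condition (siCtrl, n = 3) received ON-TARGET Control #1, and the knockdown condition (siFAM53C, n = 2) received an ON-TARGETplus pool against FAM53C, so the siRNAs of the pool cannot be told apart. Nothing in the labels says that replicates were separate cultures, and the p-values therefore measure only the spread between these samples, which may be technical. The comparison asks which transcripts differ once FAM53C, a little studied protein linked to the G1/S transition, is depleted.

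SRF is a DNA-binding protein that recognizes the CArG box, a short element of paired C and paired G bases around a run of A and T. It works with partner proteins of 2 kinds. Myocardin-related factors such as MRTFA stay in the cytoplasm while bound to monomeric actin and reach the nucleus when actin polymerizes, whereas the ternary complex factors ELK1, ELK3 and ELK4 respond to MAP kinase signalling. Through the former, SRF drives actins and actin-binding proteins, its own gene included. The contractile genes are best known from smooth muscle, and many are also expressed in epithelial and mesenchymal cells in culture, where they build stress fibres and adhesions.

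CArG boxes were searched in RefSeq promoter windows (GRCh38.p14, 250 bases before to 50 after each gene start), since they are the element by which SRF is known to act. The element reads the same in outline on both strands, so a search of one strand covers both. Of the 10 genes, 8 had at least 1 window, 14 windows in all, and TAGLN and MYL9 had none in the table. An exact box stood in 2 of the 14 windows, those of SRF and CNN2, against 1.29% of the 35116 windows of the whole table. Boxes with at most 1 departure stood in 5 of the 14 windows, of 4 genes, against 18.9% of all windows, so the looser form is common. The lines give, 5′ to 3′ on the gene's strand, the box in capitals with its flanks, the coordinates of the box, and its first base relative to the RefSeq start.
SRF, exact, chr6:43171239-43171248, plus strand, -30: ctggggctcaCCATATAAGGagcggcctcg
SRF, exact, chr6:43171259-43171268, plus strand, -10: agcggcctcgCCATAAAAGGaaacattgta
CNN2, exact, chr19:1026519-1026528, plus strand, -89: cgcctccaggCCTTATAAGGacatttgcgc
ACTA2, 1 departure, chr10:88952885-88952894, minus strand, -121: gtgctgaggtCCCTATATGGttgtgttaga
ACTA2, 1 departure, chr10:88952835-88952844, minus strand, -71: tgtctttgctCCTTGTTTGGgaagcaagtg
CALD1, 1 departure, chr7:134711473-134711482, plus strand, -26: ccagaggtccCCTAAAGAGGaatacattct
The CALD1 window shown belongs to a RefSeq start upstream of the GENCODE gene interval given for it with its counts. Not printed are a CALD1 box of 1 departure at chr7:134779390-134779399 (-244), inside that interval, and an SRF box of 1 departure at chr6:43171282-43171291 (13). A match describes letters in these windows and does not show that SRF binds there, and a window without a match says nothing of SRF at that gene. Neither gene with an exact box, SRF or CNN2, passed the test of the difference between siFAM53C and siCtrl.

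Libraries held 19260124 to 25615415 counts on genes. FAM53C itself fell from 57.6 to 60.9 CPM (counts scaled to library size) in siCtrl to 14.2 and 22.3 in siFAM53C, with a log2 fold change of -1.71 (SE 0.19, edgeR adjusted p = 0.003625). The libraries also separated along a line that the siRNA does not give. Along the leading principal component of the log2 CPM values, with 39.8% of the variance, siCtrl 3 and siFAM53C 2 lay at the high end, siCtrl 1 and 2 at the low end, and siFAM53C 1 between them. The 2 libraries at the high end are those whose columns carry the number 3. Each member is therefore also given within sides, as siFAM53C 1 against siCtrl 1 and 2 and as siFAM53C 2 against siCtrl 3, and from an edgeR fit that holds the side as a covariate (the side term). That split was known from earlier results of these data. Because the sides were set from the same counts, adjusted p-values of fits with a side term are descriptive and do not give error rates. The component by itself does not place siFAM53C 1, so the fit was repeated with siFAM53C 1 on the side of siCtrl 3, a choice made after seeing the data. Over all tested genes the median log2 fold change was 0.02.

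SRF (ENSG00000112658, GENCODE v44 on GRCh38, chromosome 6, 43171269 to 43181506, plus strand), the transcription factor itself, had 1914, 1381 and 1038 counts in siCtrl 1 to 3 and 2609 and 2105 in siFAM53C 1 and 2. Scaled to library size by TMM factors, this is 81.2, 72.3 and 54.4 CPM in siCtrl and 98.6 and 89.3 CPM in siFAM53C. Both knockdown libraries were above every control, and siCtrl 3 was the lowest of the 5. The means were 69.3 ± 13.7 CPM (SD, n = 3) and 93.97 ± 6.56 CPM (SD, n = 2), a log2 fold change of 0.44 (SE 0.17, unadjusted p = 0.03273, edgeR adjusted p = 0.2402). SRF was thus not called over all genes. Within the sides its log2 difference was 0.36 and 0.72, and the fit with the side term gave 0.51 (SE 0.10, edgeR adjusted p = 0.001913).

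ACTA2 (ENSG00000107796, chromosome 10, 88935074 to 88991339, minus strand) encodes smooth muscle alpha actin, the actin isoform by which myofibroblasts are recognized. It had 247, 165 and 157 counts in siCtrl and 458 and 311 in siFAM53C, or 10.5, 8.63 and 8.23 CPM against 17.3 and 13.2 CPM. As for SRF, the groups did not overlap, with siCtrl 3 lowest and siFAM53C 1 highest. The means were 9.114 ± 1.204 CPM (SD, n = 3) and 15.3 ± 2.91 CPM (SD, n = 2). Its log2 fold change of 0.74 (SE 0.21, unadjusted p = 0.007517, edgeR adjusted p = 0.1102) was the largest among the 9 tested members over all 5 libraries, and it was not called. The rank rests on siFAM53C 1: without it ACTA2 stood at 0.53, below MYL9 (0.91) and TAGLN (0.71). DESeq2, run without the filter on low counts, gave 0.75 and did call it (adjusted p = 0.03841). The differences within the sides were 0.86 and 0.68, and the side term gave 0.78 (SE 0.17, edgeR adjusted p = 0.004204). Of its exon bases, 2025 are shared with opposite-strand genes, 387 with FAS and 1638 with ACTA2-AS1. FAS, a death receptor gene, had 54.8, 58.6 and 67.1 CPM in siCtrl and 69.7 and 68.3 in siFAM53C, and ACTA2-AS1 stayed between 0 and 0.34 CPM. Because the sources used here give no strand setting for the counting, the share of FAS reads within ACTA2 was not tested.

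TPM2 (ENSG00000198467, chromosome 9, 35681992 to 35690056, minus strand) encodes beta tropomyosin, which winds along actin filaments and controls access of myosin. Its counts were 11867, 8770 and 7780 in siCtrl and 14073 and 12055 in siFAM53C, and its levels 504, 459 and 408 CPM against 532 and 512 CPM. TPM2 was the last of the 3 members whose knockdown libraries both lay above all controls, by a narrow margin over siCtrl 1. The log2 fold change was 0.19 (SE 0.12, edgeR adjusted p = 0.5032), within the sides 0.15 and 0.33, and with the side term 0.22 (adjusted p = 0.07151). Over all tested genes 16.7% lay above all controls in this way, beside 3 of the 9 tested members. SRF and ACTA2 were the 2 members higher at an unadjusted p under 0.05, where 6.61% of all tested genes were.

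**Figure D1:**
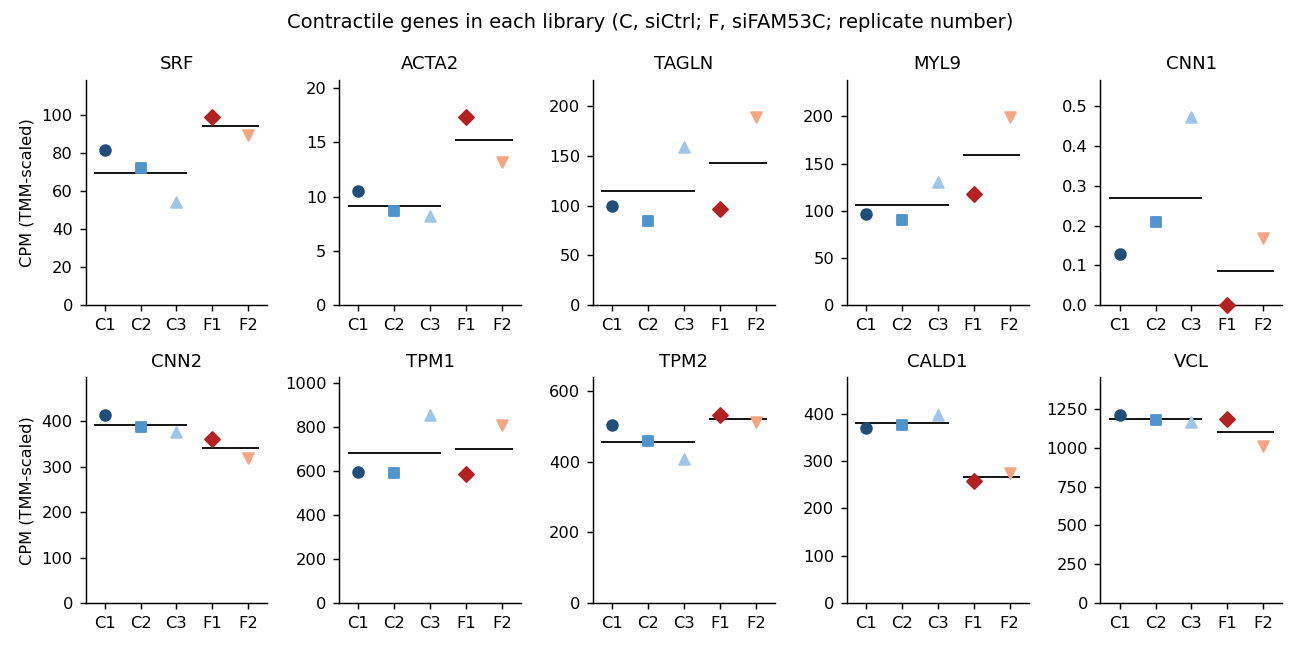
TMM-scaled CPM of the 10 genes in each library, on axes that start at 0 and differ between panels; C1 to C3 are siCtrl and F1 and F2 siFAM53C, and the lines are group means. SRF, ACTA2 and TPM2 lie above all controls in both siFAM53C libraries, CALD1 and CNN2 lie below, and TAGLN, MYL9 and TPM1 are higher in C3 and F2 than in the other libraries of their group.

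CALD1 (ENSG00000122786, chromosome 7, 134744252 to 134970729, plus strand) encodes caldesmon, an actin-binding protein that restrains actomyosin and stabilizes stress fibres. It had 8738, 7185 and 7595 counts in siCtrl and 6831 and 6488 in siFAM53C. These are 371, 376 and 398 CPM in siCtrl and 258 and 275 CPM in siFAM53C. The groups stood well apart, with controls spread over a narrow range. The means were 382 ± 14.4 CPM (SD, n = 3) and 267 ± 12.1 CPM (SD, n = 2), and the log2 fold change was -0.52 (SE 0.11, edgeR adjusted p = 0.04112). CALD1 was thus the 1 member called lower, where 3.47% of all tested genes were, and 0 members were called higher, where 0.489% were. In bulk RNA, fewer cells with a transcript and less of it per cell cannot be told apart. Each side gave the same difference, -0.53, and so did the side term (-0.53, SE 0.08, edgeR adjusted p = 0.0001377). DESeq2 gave -0.51 (adjusted p = 0.0003671). The call was close to the threshold: it was lost without siCtrl 1 (adjusted p = 0.1413), siCtrl 2 (0.1708), siFAM53C 1 (0.3222) or siFAM53C 2 (0.2167), with log2 fold changes from -0.57 to -0.48, and when libraries were scaled by their totals alone (-0.45, adjusted p = 0.07157). No annotated gene shares exon bases with CALD1.

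CNN2 (ENSG00000064666, chromosome 19, 1026586 to 1039068, plus strand) encodes calponin 2, the widely expressed calponin that binds and steadies actin filaments. With 9753, 7389 and 7187 counts in siCtrl and 9565 and 7545 in siFAM53C, it had 414, 387 and 377 CPM against 362 and 320 CPM. Both knockdown libraries were again below every control, but the gap from siCtrl 3 to siFAM53C 1 was narrow. The log2 fold change was -0.20 (SE 0.11, edgeR adjusted p = 0.4296), -0.15 and -0.23 within the sides, and -0.18 with the side term (adjusted p = 0.12). CALD1 and CNN2 were the 2 of 9 members below all controls, where 18.8% of all tested genes were, a share close to the background.

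The remaining calponin, CNN1 (ENSG00000130176, chromosome 19, 11538767 to 11550323, plus strand), marks differentiated smooth muscle. It had 3, 4 and 9 counts in siCtrl and 0 and 4 in siFAM53C, or 0.127, 0.209 and 0.472 CPM against 0 and 0.17 CPM. A count of 0 allows up to 3 counts, 0.113 CPM in siFAM53C 1, and covers counting error only. CNN1 was therefore at or near the floor in every library except siCtrl 3, which had 0.472 CPM where 3 counts are 0.157 CPM. It did not pass the filter, so no difference was tested at this depth.

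TAGLN (ENSG00000149591, chromosome 11, 117199370 to 117207464, plus strand) encodes transgelin, an actin-bundling protein of the calponin family and an early marker of smooth muscle. It had 2356, 1627 and 3039 counts in siCtrl and 2552 and 4450 in siFAM53C. In CPM this is 100, 85.1 and 159 against 96.5 and 189. The groups overlapped, and the 2 high libraries, siCtrl 3 and siFAM53C 2, belong to different groups. The log2 fold change was 0.31 (SE 0.39, edgeR adjusted p = 0.7707), smaller than its standard error, and without siFAM53C 2 it turned to -0.25. Within the sides it was 0.06 and 0.25. The gap between libraries of the same group was larger, 0.79 on the log2 scale for siCtrl 3 over siCtrl 1 and 2 and 0.97 for siFAM53C 2 over siFAM53C 1. TAGLN shares 2233 exon bases with PCSK7 on the opposite strand, which had 29.2 to 47.7 CPM in siCtrl and 43.8 and 48.9 CPM in siFAM53C. A further 2498 are shared with ENSG00000280143 on the same strand, at 0.297 to 1.70 CPM, and the part of these genes in the TAGLN counts was not tested.

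MYL9 (ENSG00000101335, chromosome 20, 36541497 to 36551447, plus strand) encodes a regulatory light chain of non-muscle and smooth muscle myosin, the subunit whose phosphorylation switches contraction on. It had 2279, 1730 and 2491 counts in siCtrl and 3125 and 4689 in siFAM53C, and 96.7, 90.5 and 131 CPM against 118 and 199 CPM. The groups overlapped, as siCtrl 3 exceeded siFAM53C 1, and siFAM53C 2 was well above the rest. Its log2 fold change was 0.58 (SE 0.25, unadjusted p = 0.05411, edgeR adjusted p = 0.3035), and it moved to 0.16 without siFAM53C 2 and to 0.91 without siFAM53C 1. Compared within the sides, both knockdown libraries were higher, by 0.34 and 0.61, and the side term gave 0.45 (SE 0.09, edgeR adjusted p = 0.001619). MYL9 shares no exon bases with another gene.

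TPM1 (ENSG00000140416, chromosome 15, 63042620 to 63071915, plus strand), alpha tropomyosin, had 13967, 11320 and 16290 counts in siCtrl and 15533 and 19027 in siFAM53C. Its levels were 593, 592 and 853 CPM in siCtrl and 587 and 808 CPM in siFAM53C. These values paired off by side and not by siRNA. The log2 fold change was 0.04 (SE 0.21, edgeR adjusted p = 0.9573), and within the sides it was -0.01 and -0.08, as it was below 0 with the side term (-0.04). Its means were 680 ± 151 CPM (SD, n = 3) and 697 ± 156 CPM (SD, n = 2). TPM1 shares 2645 exon bases with TPM1-AS on the opposite strand, which had at most 4.71 CPM in any library.

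VCL (ENSG00000035403, chromosome 10, 73995193 to 74121363, plus strand) encodes vinculin, which couples integrin adhesions and cell junctions to actin. It had 28519, 22466 and 22205 counts in siCtrl and 31403 and 23847 in siFAM53C, and 1211, 1176 and 1163 CPM against 1187 and 1012 CPM. VCL varied least of the 9 tested members, with a highest library 1.2 times the lowest, and the groups overlapped. The log2 fold change was -0.11 (SE 0.12, edgeR adjusted p = 0.7377), with -0.01 and -0.20 within the sides. Without siFAM53C 2 it was 0.00206, so its direction rests on that library. VCL shares 1109 exon bases with AP3M1 on the opposite strand, which had 128 to 136 CPM in siCtrl and 134 and 142 CPM in siFAM53C, and the part of that gene in the VCL counts was not tested.

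**Figure D2:**
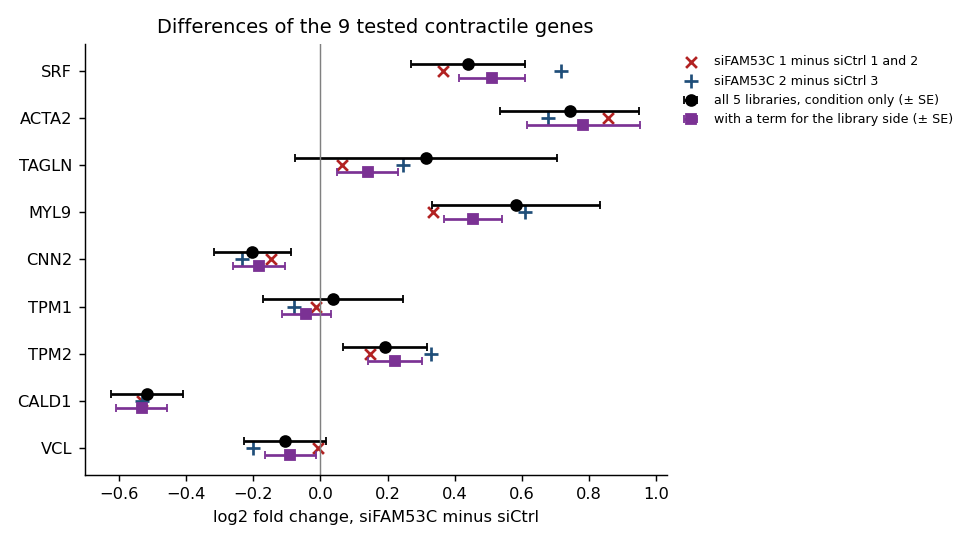
Log2 fold change of the 9 tested members, siFAM53C minus siCtrl, from the fit with the condition only (black, ± SE), from the fit with a side term (purple, ± SE), and as differences within each side (crosses, no error). CALD1 is near -0.52 by every measure, SRF, ACTA2 and MYL9 are above 0 by every measure, and TPM1 is close to 0.

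Of the 9 tested members, 6 had a log2 fold change above 0 and 3 below, and their median was 0.19 beside 0.02 over all tested genes. With the side term, CALD1 was again the 1 member called lower, where 10.7% of all tested genes were, and SRF, ACTA2 and MYL9 were the 3 called higher, where 6.76% were. That fit calls many more genes than the fit with the condition only, in both directions, and its sides were set from these same data. With siFAM53C 1 on the side of siCtrl 3, CALD1 was still lower (-0.58, edgeR adjusted p = 0.02371) and SRF still higher (0.79, adjusted p = 0.01083), whereas ACTA2 (0.89, adjusted p = 0.09573) and MYL9 (0.28, adjusted p = 0.7328) were not called. At an unadjusted p under 0.05, CALD1 was the 1 member lower, where 10.5% of all genes were. limma-voom called 1 member lower and 0 higher. The members therefore did not move as a block.

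The members varied over the libraries by different amounts. The highest library was 2.22 times the lowest for TAGLN, 2.20 times for MYL9, 2.1 times for ACTA2 and 1.81 times for SRF. By contrast, this ratio was 1.29 for CNN2, 1.30 for TPM2, 1.45 for TPM1 and 1.54 for CALD1. Likeness of pattern was measured as the root mean square difference of log2 CPM centred on each gene's mean over the 5 libraries, a description without a test. The nearest pair was CNN2 and VCL (0.0557), both highest in siCtrl 1 and lowest in siFAM53C 2. SRF and TPM2 (0.161) and SRF and ACTA2 (0.191) were lowest in siCtrl 3 and highest in siFAM53C 1. TAGLN and MYL9 (0.19) were highest in siFAM53C 2 and lowest in siCtrl 2, and TPM1 lay nearest to TAGLN (0.234). The farthest pair was ACTA2 and CALD1 (0.647). The 2 tropomyosins were not near each other (0.335).

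This spread along the sides reached many genes. For the central 90% of all tested genes, siCtrl 3 minus the mean of siCtrl 1 and 2 ran from -0.87 to 1.28 on the log2 scale, and siFAM53C 2 minus siFAM53C 1 from -0.77 to 1.08. TAGLN, MYL9 and TPM1 were positive in both, at 0.79 and 0.97, 0.48 and 0.75, and 0.53 and 0.46, inside both ranges. SRF was negative in both, at -0.49 and -0.14, as were ACTA2 (-0.21 and -0.39) and TPM2 (-0.24 and -0.06).

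Levels between genes were compared per kilobase of annotated exon (RPKM), in siCtrl. TPM2 was highest at 144 ± 15.1 RPKM (SD, n = 3), above 98.6% of tested genes, followed by VCL at 118 ± 2.45 and CNN2 at 108 ± 5.32. TPM1 (46.2 ± 10.2), CALD1 (39.0 ± 1.47) and MYL9 (37.7 ± 7.66) came next and overlapped between libraries. TPM1 was the highest of these 3 in each siCtrl library, and the order of CALD1 and MYL9 is not resolved. TAGLN (17.5 ± 5.98) and SRF (16.4 ± 3.23) also overlapped. SRF was above 81.7% of tested genes in this measure. ACTA2 was far lower, at 1.62 ± 0.21 RPKM, and CNN1 last at 0.0950 ± 0.0634. In siFAM53C the order at the top and bottom was unchanged, with TPM2 at 164 ± 4.50 and ACTA2 at 2.71 ± 0.52 RPKM (SD, n = 2), while MYL9, at 56.5 ± 20.4, and CALD1, at 27.3 ± 1.24, no longer overlapped. The middle of the order depends on the length used. Divided by the longest annotated transcript, TPM1 stood at 172 RPKM in siCtrl, level with CNN2 at 173 and above VCL at 148, because its annotated exons span far more bases than any single transcript.

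**Figure D3:**
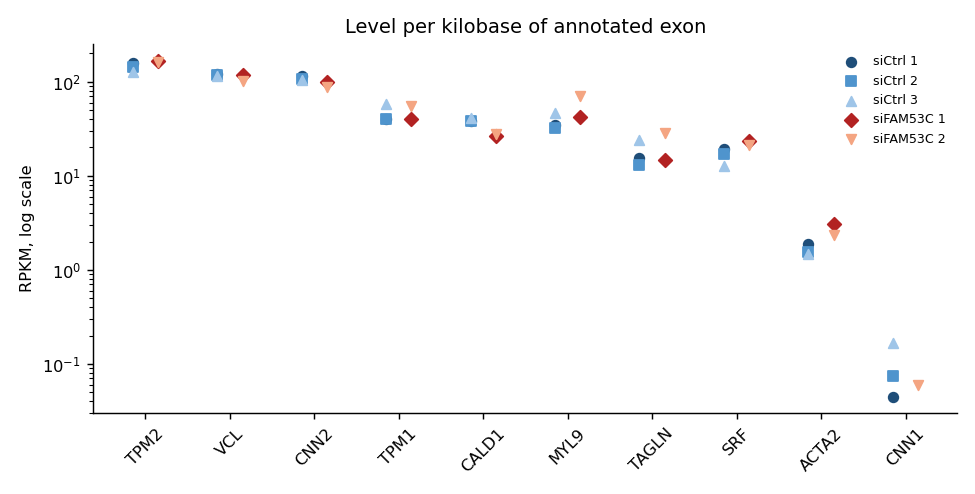
RPKM of the 10 genes in each library on a log axis, in order of their mean over the siCtrl libraries. TPM2, VCL and CNN2 lie near or above 100, ACTA2 below 5 and CNN1 below 0.2; CNN1 in siFAM53C 1, at 0, cannot be drawn.

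RPE-1 cells are not muscle, and the muscle list was read for that. Of its 9 genes, DES, KCNMB1, PLN and ACTC1 had 0 counts in all libraries, and MYH11, smooth muscle myosin heavy chain, had 0 CPM in all but siFAM53C 1 (0.04). The summed level of the list was 28.5 to 31.3 RPKM in siCtrl and 33.8 and 33.9 RPKM in siFAM53C, and almost all of it was SMTN (smoothelin), at 281 to 312 CPM in siCtrl and 331 and 333 in siFAM53C. LMOD1, leiomodin, had 1.27 to 2.36 CPM and 3.93 and 3.95 CPM. Neither passed the test (edgeR adjusted p = 0.5467 and 0.1656), and of the 3 genes of the list that were tested, edgeR, DESeq2 and limma-voom called 0 lower and 0 higher, with 0 and 1 at an unadjusted p under 0.05. The side term gave 0 lower and 1 higher, beside 10.7% and 6.76% of all tested genes. With CNN1 near the floor in most libraries, the abundant members were those used widely outside muscle.

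The labelled cell type was checked in the same way. Of 9 pigment epithelium markers, RPE65, the visual cycle isomerase, had 0 counts throughout. RLBP1, TYR and TYRP1 had at most 0.085 CPM in any library, BEST1 and PMEL at most 1.23 CPM, and SERPINF1 at most 2.99 CPM. The sum of the list was 9.94 to 12.6 RPKM in siCtrl and 9.93 and 11.5 RPKM in siFAM53C. Most of it came from MITF and OTX2, transcription factors of that lineage, with siCtrl means of 5.40 and 4.71 RPKM. Among 6 epithelial markers, KRT8 and KRT18 carried a sum of 82.9 to 101 RPKM in siCtrl and 105 and 106 in siFAM53C, while EPCAM and CDH1 were at or near 0. By edgeR, DESeq2 and limma-voom, 0 of the 5 tested pigment epithelium markers and 0 of the 3 tested epithelial markers were called in either direction. At an unadjusted p under 0.05 there were 0 of the former and 2 of the latter, 1 lower and 1 higher. Over all tested genes 10.5% were lower and 6.61% higher at that level. The side term called 0 pigment epithelium markers, and 0 epithelial markers lower and 1 higher, beside 10.7% lower and 6.76% higher of all tested genes. The 8 mesenchymal markers summed to 1037 to 1307 RPKM in siCtrl and 1011 and 1226 in siFAM53C, mostly VIM and FN1. Of 7 tested, 3 had a log2 fold change below 0 and 4 above, 0 were called lower (1 at an unadjusted p under 0.05, and 0 by DESeq2 and limma-voom), and COL1A1 (0.74, SE 0.14, edgeR adjusted p = 0.03098) and PDGFRB (0.67, SE 0.12, edgeR adjusted p = 0.02454) were called higher, where 0.489% of all tested genes were, and are named here after their values were seen. Without siCtrl 1, siCtrl 2, siFAM53C 1 or siFAM53C 2, neither was called (adjusted p 0.115 to 0.206 for COL1A1 and 0.0850 to 0.180 for PDGFRB), with log2 fold changes of 0.67 to 0.77 and 0.60 to 0.73. The 3 below 0 were CDH2 (-0.44, edgeR adjusted p = 0.2369), THY1 (-0.22, edgeR adjusted p = 0.3471) and VIM (-0.14, edgeR adjusted p = 0.7083). COL1A2, at most 0.37 CPM in any library, was not tested. The side term gave 1 mesenchymal marker lower and 2 higher. With siFAM53C 1 on the side of siCtrl 3, COL1A1 was not called (0.66, adjusted p = 0.07992). The part of these markers in the differences of ACTA2 and SRF was not tested.

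The SRF partners were examined next, as 9 genes of which 8 were tested. By edgeR 2 were lower and 0 higher, beside 3.47% and 0.489% of all tested genes, with a median log2 fold change of 0.04. DESeq2 and limma-voom also called 2 lower and 0 higher, and at an unadjusted p under 0.05 there were 2 lower and 1 higher. The lower genes were both ternary complex factors. ELK1 had 50.2, 45.2 and 43.3 CPM in siCtrl and 23.8 and 22.9 CPM in siFAM53C, with a log2 fold change of -0.99 (SE 0.12, edgeR adjusted p = 0.005642). ELK3 had 226, 238 and 186 CPM against 136 and 104 CPM, with -0.85 (SE 0.16, edgeR adjusted p = 0.03019). For both, the knockdown libraries lay far below all controls. FHL2, a LIM protein that binds SRF, had a log2 fold change of -0.24 (SE 0.12, edgeR adjusted p = 0.3802). MYOCD, the cofactor that restricts SRF to muscle genes in heart and smooth muscle, had 0 counts in all libraries. The partner higher at an unadjusted p was MRTFA, with 50.1, 48.5 and 41.8 CPM in siCtrl and 57.8 and 60.1 in siFAM53C. Its log2 fold change was 0.33 (SE 0.12, edgeR unadjusted p = 0.02459, adjusted p = 0.212), so it was not called. The side term gave 3 partners lower and 1 higher, beside 10.7% and 6.76% of all tested genes. ELK1 was no longer called without either siFAM53C library (-1.02 and -0.96, adjusted p = 0.05654 and 0.05924), nor ELK3 without siCtrl 1 (0.1255), siCtrl 2 (0.1438), siFAM53C 1 (0.0604) or siFAM53C 2 (0.2029), where it ranged from -1.07 to -0.67.

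Among 30 further actin and adhesion genes, all tested, edgeR called 3 lower and 0 higher, beside 3.47% and 0.489% of all tested genes, with a median of 0.02. At an unadjusted p under 0.05 there were 8 lower and 3 higher, beside 10.5% and 6.61% of all tested genes. DESeq2 called 7 lower and 0 higher, and limma-voom 4 lower and 0 higher. The side term gave 9 lower and 6 higher, beside 10.7% and 6.76% of all tested genes. ACTB, cytoplasmic beta actin, fell from 9498, 9272 and 9283 CPM to 5572 and 5543 CPM, a log2 fold change of -0.75 (SE 0.12, edgeR adjusted p = 0.01781). Libraries of each group lay within a narrow range of each other, but actin genes have close copies and pseudogenes, and how multiply mapped reads were counted is not given. ACTG1, cytoplasmic gamma actin, stayed at 6212, 6592 and 6328 CPM against 6278 and 6265 CPM (-0.02, SE 0.12, edgeR adjusted p = 0.9512). MYH10, a non-muscle myosin heavy chain, had 202, 193 and 226 CPM and then 134 and 140 CPM (-0.60, SE 0.11, edgeR adjusted p = 0.02905). LPP, a LIM protein of focal adhesions, had 56.8, 85.6 and 110 CPM and then 26.6 and 30.6 CPM (-1.56, SE 0.28, edgeR adjusted p = 0.03118). LPP varied widely among the controls, and every knockdown value was below the lowest of them. Calls of ACTB and MYH10 were lost without siCtrl 1 (adjusted p = 0.112 and 0.115), siCtrl 2 (0.1263 and 0.1048), siFAM53C 1 (0.1465 and 0.2339) or siFAM53C 2 (0.1457 and 0.1749), that of MYH10 also with library totals (0.05233), and that of LPP without siCtrl 2 (0.1175), siFAM53C 1 (0.2376) or siFAM53C 2 (0.1805). Their log2 fold changes in these fits ran from -0.76 to -0.74 for ACTB, from -0.65 to -0.53 for MYH10 and from -1.66 to -1.46 for LPP.

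The immediate early genes, which serum induces through SRF and the ternary complex factors, numbered 8, of which 6 were tested. By edgeR, DESeq2 and limma-voom 0 were lower and 0 higher, and at an unadjusted p under 0.05 0 were lower and 1 higher. The side term gave 1 lower and 1 higher, beside 10.7% and 6.76% of all tested genes. The most abundant per length were IER2 (-0.24, SE 0.21, edgeR adjusted p = 0.6476) and FOS (0.13, SE 0.59, edgeR adjusted p = 0.9452). FOS ranged from 12.2 to 28.1 CPM in siCtrl and from 12.2 to 36.6 CPM in siFAM53C. Of the 63 pathway genes examined, MYOCD, EGR2 and ARC were not tested. Among the tested ones 5 were lower and 0 higher, beside 3.47% and 0.489% of all tested genes. An unadjusted p under 0.05 was reached by 13 on the lower and 6 on the higher side, beside 10.5% and 6.61%.

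**Figure D4:**
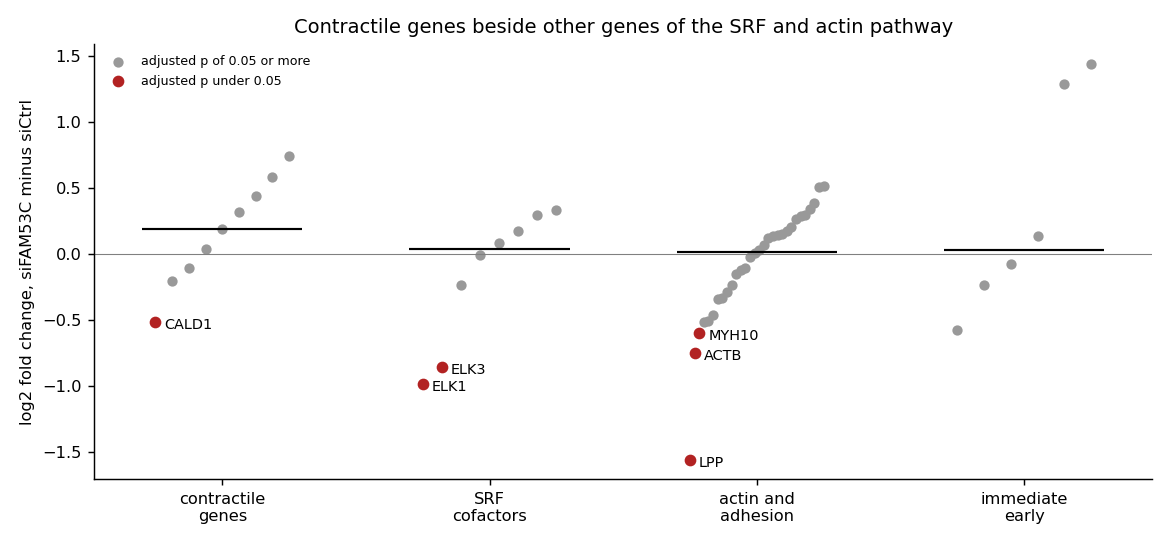
Log2 fold change, siFAM53C minus siCtrl, of each tested member and of each tested gene of the 3 pathway lists; a bar is the list's median and red points have an edgeR adjusted p under 0.05. The medians lie between 0.02 and 0.19, and the 6 called genes are all below 0.

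CALD1 and VCL share a sequence feature in the 3′ UTR that the other 8 members lack. The heptamer GACAAGA was searched, on the transcript's strand of the longest annotated 3′ UTR, because 12.5% of the 1825 tested genes that hold it were called lower, beside 3.47% of all tested genes. It is present in 15.1% of the 12096 tested genes with such a UTR, FAM53C among them. The calls behind the 12.5% come from this same comparison and include CALD1 and FAM53C. The 3.47% also covers holders and genes without such a UTR, and UTR length was not matched. The lines give the heptamer in capitals, with its GRCh38 coordinates.
CALD1, chr7:134969456-134969462, plus strand: taaaattgaaaGACAAGAaatttagtgcc
VCL, chr10:74121267-74121273, plus strand: ttgcctctcagGACAAGAtcagcattttc
FAM53C, chr5:138347138-138347144, plus strand: agactggccggGACAAGAtaaacggagct
CALD1 was lower (-0.52) and VCL was not called (-0.11), so the holders among the members differ in outcome. Of the tested pathway genes 6 hold it, and 1 of these, ELK1, was called lower, while ELK3, ACTB, MYH10 and LPP, which were lower, do not hold it. The part of the heptamer in the lower level of CALD1 was not tested.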

How the data were processed

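RNA from 5 RPE-1 samples, grouped by their titles, was measured as raw counts per gene. Per the labels and methods, the authors removed adapters from the paired reads (CutAdapt 2.10), mapped to hg38 (HISAT2, reverse strandedness) and used featureCounts to make the deposited counts, which carry no normalization. The strand setting, annotation release and treatment of multiply mapped reads in the counting are not given in the sources used here. The labels also list mm10, name another RNA kit than the methods, and hold 3 siCtrl samples where the methods give duplicates. The column of siFAM53C 2 carries the number 3.

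The tests were run with edgeR 4.0.16 (R 4.3.3). Low genes were removed by filterByExpr at its defaults of 10 counts and a total of 15, and libraries were scaled by TMM. The model held the condition alone, with the robust quasi-likelihood test (two-sided) and Benjamini-Hochberg adjustment over 15341 genes, with a threshold of 0.05. The robust option was chosen after seeing the data. SE is the log2 fold change divided by the root of F. Log2 CPM used a prior count of 2. RPKM used the union of GENCODE v44 exons, which matched 56105 identifiers. Totals of 19260124 to 25615415 counts limit precision for low genes. Scripts were tested on simulated counts.

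The members and lists were chosen with earlier results of these data known. Named genes were all members, pathway genes past the threshold, the 2 most abundant of each list and defining markers at 0. Also named were the 4 genes with a symbol nearest in pattern to SRF and to TAGLN. MRTFA, COL1A1 and PDGFRB were named after their values were seen. Alternatives were DESeq2 1.42.0, limma-voom (limma 3.58.1), other size factors and filters, unadjusted p-values, replicate blocks, a side term and each library left out. DESeq2 was run without the filter on low counts. Added after seeing the data were the fit without the robust option and the side term with siFAM53C 1 on the side of siCtrl 3. Replicates of a group all differed beyond sampling noise. Nothing was computed from the authors' own comparisons. Of the 63 pathway genes, 16 form a list that is not reported here on its own.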

Additional observations from a re-analysis of the deposited data

How the results depend on the processing

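Of 144 tested log2 fold changes of members under other settings, 119 kept their direction and side of the threshold. The count of members lower (1) was 0 with library totals and 0 to 1 with a library left out. Members higher (0) became 1 with DESeq2, 3 with no filter on low counts, 2 with unadjusted p-values and 3 with the side term, and stayed at 0 with each library left out. Pathway genes lower (5) became 11 with DESeq2, 10 with no filter, 13 unadjusted, 17 with the side term and 0 to 9 with a library left out, and those higher (0) became 1 with DESeq2, 1 with library totals, 1 with no filter, 6 unadjusted, 9 with the side term and 0 to 2. The labels do not say that replicate numbers mark a batch, and there are only 2 pairs: deviations of same-numbered libraries correlated at 0.169 and -0.285 by titles and at 0.169 and 0.371 by column names, where the columns numbered 3 are siCtrl 3 and siFAM53C 2, the pair that the sides set apart. With a replicate block by titles 9 pathway genes were lower and 1 higher, and with one by column names 15 and 5, with 3 members higher (SRF 0.49, ACTA2 0.70, MYL9 0.45). Over all 15341 tested genes, the block by titles called 856 lower and 355 higher, and that by column names 1350 and 642. With siFAM53C 1 on the side of siCtrl 3, 1 member (SRF) and 4 pathway genes were higher, and TAGLN (-0.159) and TPM1 (-0.292) turned; the cause was not tested. Directions turned for TPM1 under the block by column names (-0.047), the side term (-0.0419), within the sides (-0.0135 and -0.0798) and with a library left out (-0.213 to 0.244), for TAGLN without siFAM53C 2 (-0.253, with 0.714 the highest with a library left out), and for VCL without it (0.00206, with -0.231 the lowest). FAM53C kept its call throughout. Over the 15341 genes, 533 were lower and 75 higher (87.7% lower), and 415 and 121 with library totals (77.4%). The side term called 1636 and 1037 of them (686 and 259 with siFAM53C 1 on the other side). DESeq2, run without the low-count filter on 26587 genes, called 888 and 254 (77.8%). With no filter edgeR called 961 and 375, also of 26587. Without siCtrl 3, 886 were lower and 414 higher of 14986. Without siCtrl 1, 209 of 14876 were lower, and without siCtrl 2, 180 of 15195. Depth limits CNN1 and, less so, ACTA2.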

Other observations

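Among genes with a symbol, those with the pattern most like that of SRF over the 5 libraries were AAMP, PLPPR2, ACOT8 and HSPA12B. Their root mean square differences of centred log2 CPM were 0.0238, 0.0341, 0.0347 and 0.0348, all nearer to SRF than TPM2 (0.161), the nearest member. For TAGLN they were DPY19L2 (0.0706), DDX12B (0.0751), PKD1P4 (0.0768) and CLCF1 (0.0771), nearer than MYL9 (0.19). These are the smallest differences among genes with a symbol and a mean CPM of at least 10, over 5 libraries that share the split by side. Genes without a symbol were left out and may lie nearer. DPY19L2, DDX12B and PKD1P4 belong to families with near-identical copies, so their counts are uncertain.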
